A study of Mus musculus with 12 samples.

Results

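The acute response of gastrocnemius muscle to exhaustive running was compared between wild-type mice and mice without ERRα (estrogen-related receptor alpha, gene Esrra). The quantity studied is the interaction of genotype and exercise, which is the exercise response of ERRα-null muscle (exercised minus sedentary, log2) minus that of wild-type muscle. A value below 0 means that the response of ERRα-null muscle lay below that of wild type, and a value above 0 that it lay above. The interaction uses all 12 of the 12 arrays of the series, 3 in each of 4 groups, which were assigned from the sample titles. The groups were sedentary wild type, sedentary ERRα-null, exercised wild type and exercised ERRα-null. All mice were of the FVB strain, labelled male, and 2 to 3 months old. Exercised mice had run on a treadmill until exhaustion and gave muscle 2 h later, whereas sedentary mice had not run. The labels call the 3 arrays of a group biological replicates and give the null genotype without a promoter, a Cre driver or a tissue restriction. Each array was an Affymetrix Mouse Gene 2.0 ST, which reads total RNA over whole transcripts, and the values are log2 expression values for which higher means more transcript relative to the bulk of the array. Of 22180 genes with a probeset of their own, 13308 were bright enough to be tested. Arrays have no read depth, and 3 arrays a group limit the precision. The median standard error of an interaction was 0.16 log2.

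ERRα is an orphan nuclear receptor that binds DNA without a known natural ligand and takes its activity from coactivators, chiefly PGC-1α (Ppargc1a). Together they drive genes of oxidative phosphorylation, the tricarboxylic acid cycle and fatty acid oxidation in muscle. A bout of running raises calcium, cAMP signalling, heat, oxidative stress and circulating stress hormones, and within hours induces early transcription factors, NR4A nuclear receptors, PGC-1α, heat shock proteins and Pdk4. Pdk4 phosphorylates the pyruvate dehydrogenase complex, which turns muscle from carbohydrate towards fat as fuel. ERRα, PPAR receptors, FOXO factors and the glucocorticoid receptor are all known regulators of Pdk4.

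Several features of the arrays bear on every value below. Esrra lay between 7.41 and 7.63 on wild-type arrays and between 6.55 and 6.89 on ERRα-null arrays, without overlap, and its own interaction was 0.04 log2 (95% interval −0.30 to 0.38). The source name, another label, gives the opposite exercise state for sedentary ERRα-null and exercised wild type, and the titles were followed. By the source name every wild-type array would be sedentary and every ERRα-null array exercised, which leaves no interaction to estimate, so that each value here rests on the titles. On wild-type arrays Nr4a3, which contraction induces, lay between 10.44 and 10.63 where the title says exercised and between 5.24 and 5.52 where it says sedentary. On exercised wild type replicate 3 and exercised ERRα-null replicates 2 and 3, Xist lay between 7.82 and 7.90 and Eif2s3y between 4.97 and 5.20, a female pattern that goes against the label. Xist was at most 4.30 and Eif2s3y at least 7.83 on the other 9 arrays. RNA of other tissues varied between arrays of a group. Alb, a liver transcript, ran from 6.24 to 12.82, and Ucp1, a brown fat transcript, reached 10.93 on sedentary arrays and at most 6.24 on exercised ones. Cd79a, of B cells, lay between 7.78 and 8.95 on 3 sedentary arrays and at most at 5.47 elsewhere. Seminal vesicle transcripts were high on sedentary ERRα-null replicate 1 alone, where Svs5 lay at 12.98. Skeletal muscle markers were steady, with a per-array mean between −0.07 and 0.03 around their overall mean.

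A single gene, Pdk4, passed the test for the interaction, with a response in ERRα-null muscle below that in wild type. That is 1 of 13308 genes (0.00751%) at an adjusted p under 0.05 in limma with Benjamini-Hochberg adjustment. No gene passed above 0, where the smallest adjusted p was 0.603. An unadjusted p under 0.05 was reached by 681 genes (5.12%), close to the 665 that this threshold gives by itself, of which 426 lay below 0 (3.20%) and 255 above (1.92%). Values below 0 thus made up 62.6% of these genes. That split depended on the scaling, with 530 below and 152 above when each array was centred on its median. Leaving out the 3 arrays of high Xist also shifted it, and values below 0 were then no longer the larger part. Only replicate 1 of exercised ERRα-null muscle then remains, so no counts are given for that fit. Over all tested genes 50.6% of interactions lay below 0 and their median was −0.0024.

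The separate responses were of unequal size. In wild-type muscle 457 genes changed (3.43%), 296 of them upward (2.22%) and 161 downward (1.21%), and in ERRα-null muscle 85 did (0.639%), 51 upward (0.383%) and 34 downward (0.255%). These counts leaned on single arrays. The wild-type count was 251 and 221 when sedentary wild type replicates 2 and 3 were left out in turn, and 243 when exercised wild type replicate 1 was. The ERRα-null count was 52 when sedentary wild type replicate 2 was left out, 55 and 36 for sedentary ERRα-null replicates 1 and 3, and 32 and 41 for exercised ERRα-null replicates 2 and 3. A difference in such counts is no test of a difference in response, which the interaction is. The responses of the genotypes, which share no array, correlated across the 13308 genes with Pearson's r = 0.67, where genes are not independent replicates, and had standard deviations of 0.29 in wild type and 0.24 in ERRα-null muscle.

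Genes can be chosen for their response averaged over both genotypes without using the difference between genotypes. By that average 874 genes changed (6.57%), of which 418 rose (3.14%) and 456 fell (3.43%). The median response of the 418 was 0.58 in wild-type and 0.38 in ERRα-null muscle, and the ERRα-null response was the smaller one for 343 of them, with a median interaction of −0.20. At an unadjusted p under 0.05 the ERRα-null response was smaller for 113 of the 418 and larger for 3, where 3.20% of all genes lie below 0 and 1.92% above. The choice of genes and these p-values use the same estimate of each gene's spread, so counts at that threshold are a description only. With each array left out in turn the smaller response was that of ERRα-null muscle for 320 to 357 of the 418. The 456 genes that fell had median responses of −0.40 in wild-type and −0.35 in ERRα-null muscle, the ERRα-null response was nearer to 0 for 281, and at an unadjusted p under 0.05 it was smaller for 26 and larger for 13. The plot of both responses shows the risen genes as a cloud under the diagonal.

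**Figure D1:**
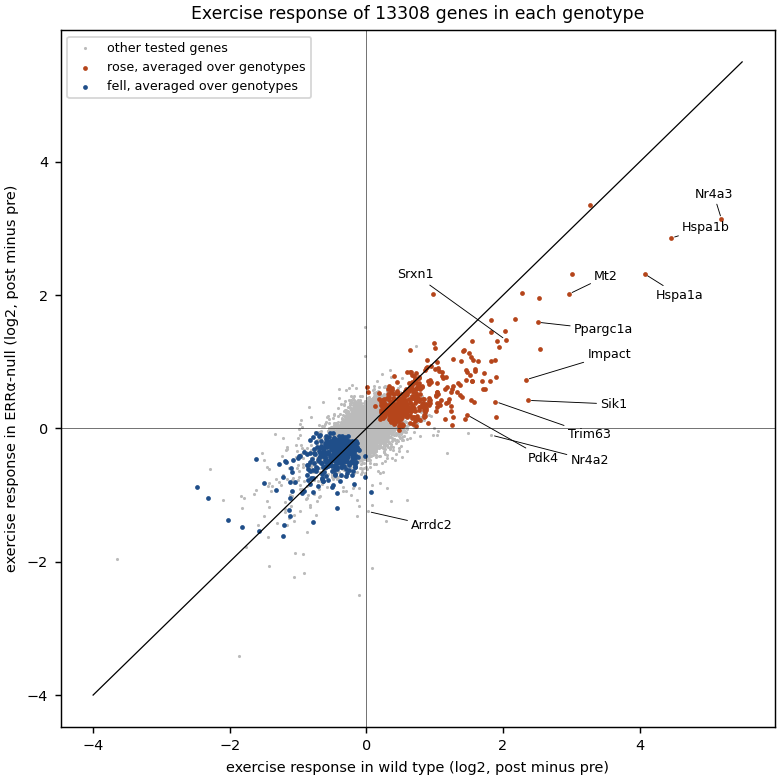
Exercise response of each of 13308 tested genes in wild-type muscle (horizontal axis) and ERRα-null muscle (vertical axis), both as log2 of exercised minus sedentary group means; coloured points are the 418 genes that rose and the 456 that fell on average over genotypes, and the line marks equal responses. Of the 418 risen genes 343 lie under the line, with Nr4a3, Hspa1a, Sik1, Impact, Trim63 and Pdk4 far below it, whereas the fallen genes lie closer to it.

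The interaction is also the genotype difference after exercise minus that at rest. Tested singly, the genotypes differed in 11 genes at rest (0.0827%), 7 higher (0.0526%) and 4 lower (0.0301%) in ERRα-null muscle. After exercise they differed in 50 (0.376%), 12 higher (0.0902%) and 38 lower (0.286%). Of the 426 genes below 0 at an unadjusted p under 0.05, 360 were higher at rest and lower after exercise in ERRα-null muscle, with median differences of 0.18 and −0.26. The responses of both genotypes were above 0 in 145, that of wild type above and that of ERRα-null below 0 in 247, and both below 0 in 34. Of the 255 genes above 0, 223 were lower at rest and higher after exercise in ERRα-null muscle. Among the 255, the response was below 0 in wild type and above 0 in ERRα-null muscle in 202, below 0 in both in 46 and above 0 in both in 7. A difference at rest enters the interaction through the same sedentary arrays, so these counts are a description and no independent evidence.

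The 15 genes with the smallest p below 0 were Pdk4, Nr4a3, Hspa1a, Hivep2, Irf2bp2, Impact, Ppargc1a, Sik1, Retreg1, Nfil3, Mafk, Gcnt2, Pdxk, Ppp1r3c and Mknk2, with interactions from −0.49 to −2.06 log2 and adjusted p from 0.0121 to 0.394. Of these, 14 rose in wild type, Gcnt2 being the exception. Hspa1a was tested through its exercised arrays, as its sedentary values lay under the brightness limit. In ERRα-null muscle Nr4a3, Hspa1a and Ppargc1a rose, Gcnt2 fell and the other 11 did not pass. After exercise 12 of the 15 did not overlap between genotypes, all of them lower in ERRα-null muscle, where 16.0% of all genes do not overlap in either direction. At rest 10 of 15 did not overlap, against 13.4% of all genes. The genes were ranked by this contrast, so that these counts describe its shape and do not support it. The plot of intervals sets them beside the 15 genes above 0.

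**Figure D2:**
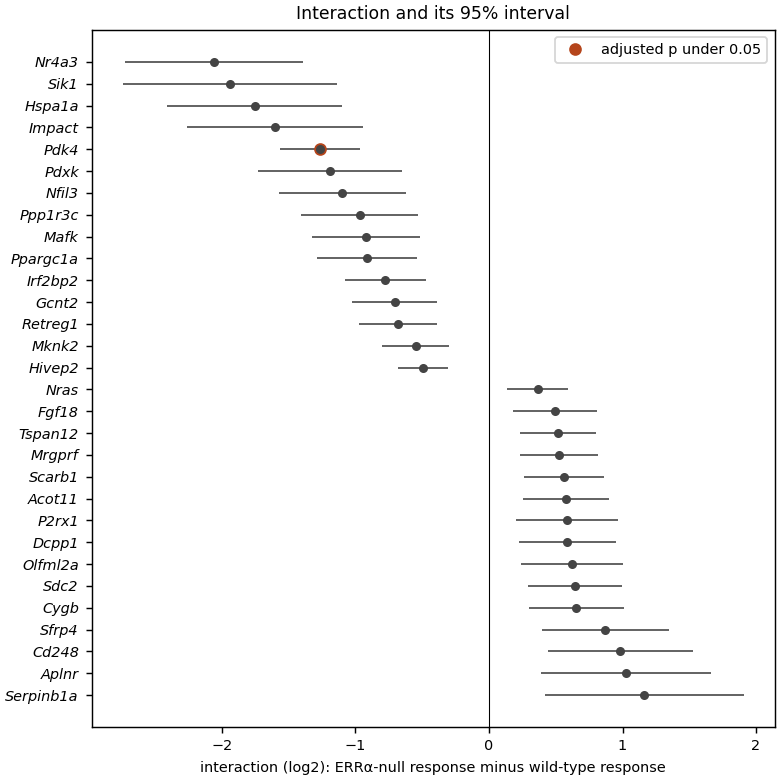
Interaction (log2, ERRα-null response minus wild-type response) of the 15 genes with the smallest p in each direction; points are estimates and bars are 95% intervals from limma on 12 arrays, unadjusted for the choice of genes. Pdk4, the coloured point, is the one gene with an adjusted p under 0.05 and has a narrow interval from −1.56 to −0.96, whereas Nr4a3 and Sik1 are larger and less precise.

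Promoter sequence is shown here for Pdk4, the called gene, and for Nr4a3, Ppargc1a and Hspa1a, the 3 genes among the first 15 that rose in both genotypes. Each is the 250 bases before the annotated start in RefSeq's table for GRCm38.p6, read 5′ to 3′ along the gene. The windows are chr6:5496279-5496528 on the minus strand for Pdk4, chr4:48045055-48045304 on the plus strand for Nr4a3, chr5:51567726-51567975 on the minus strand for Ppargc1a and chr17:34972157-34972406 on the minus strand for Hspa1a. Capitals mark matches, on either strand, to 1 of 6 motifs searched, which are described after the sequences.
Pdk4: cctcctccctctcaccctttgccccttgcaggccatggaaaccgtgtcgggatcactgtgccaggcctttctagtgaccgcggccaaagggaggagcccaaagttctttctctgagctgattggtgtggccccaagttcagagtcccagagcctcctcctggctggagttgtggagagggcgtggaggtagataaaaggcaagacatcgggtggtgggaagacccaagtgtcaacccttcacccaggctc
Nr4a3: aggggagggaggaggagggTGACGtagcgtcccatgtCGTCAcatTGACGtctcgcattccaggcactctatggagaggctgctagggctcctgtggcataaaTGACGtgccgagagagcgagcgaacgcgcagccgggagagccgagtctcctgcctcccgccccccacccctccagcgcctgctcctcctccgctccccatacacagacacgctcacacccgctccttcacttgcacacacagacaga
Ppargc1a: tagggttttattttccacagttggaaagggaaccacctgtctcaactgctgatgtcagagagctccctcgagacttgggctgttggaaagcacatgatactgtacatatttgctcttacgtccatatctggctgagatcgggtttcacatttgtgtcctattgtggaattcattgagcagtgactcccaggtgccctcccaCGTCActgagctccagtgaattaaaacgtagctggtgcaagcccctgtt
Hspa1a: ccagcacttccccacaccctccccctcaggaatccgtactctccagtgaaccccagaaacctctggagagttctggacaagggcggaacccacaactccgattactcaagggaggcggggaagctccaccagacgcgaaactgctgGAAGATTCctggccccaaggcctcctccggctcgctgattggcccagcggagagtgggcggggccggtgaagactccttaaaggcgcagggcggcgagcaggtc

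The motifs were the ERR response element TNAAGGTCA, the nuclear receptor half-site AGGTCA that lies inside it, the cAMP response element TGACGTCA and the half-site TGACG inside it, the heat shock element core GAANNTTC, and the AP-1 site TGANTCA. The Nr4a3 window held 4 cAMP half-sites, 231, 213, 205 and 147 bases before the start. Ppargc1a had 1 such half-site at 49 bases, Hspa1a had the heat shock core GAAGATTC at 104 bases, and the Pdk4 window held no match to any of the 6 motifs. Among the 15 genes below 0, 13 had a window, and the cAMP half-site was found in 7 of them, Nr4a3, Ppargc1a, Retreg1, Nfil3, Mafk, Gcnt2 and Pdxk, where 19.8% of 27025 genes have one. The full cAMP element was in Retreg1 (1.77% of genes), the nuclear receptor half-site in Nfil3 and Pdxk (15.8%), and the heat shock core in Hspa1a (7.73%). The ERR element (1.30% of genes) and the AP-1 site (7.82%) matched none of the 13. A match describes letters in this window and shows no binding.

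Pdk4 lay at 10.85, 10.76 and 10.88 on the sedentary wild-type arrays and at 12.41, 12.29 and 12.19 on the exercised ones. In ERRα-null muscle it lay at 11.75, 11.66 and 11.52 at rest and at 12.08, 11.76 and 11.71 after exercise. The ERRα-null arrays were thus all above wild type at rest and all below it after exercise, so that they spanned a narrower range between the wild-type extremes. Pdk4 rose 2.77-fold in wild type (log2 1.47 ± 0.10 (SE), adjusted p = 9.75e-06) and had a response of 0.21 ± 0.10 in ERRα-null muscle, which did not pass (adjusted p = 0.391). The interaction was −1.26 ± 0.14 (95% interval −1.56 to −0.96, adjusted p = 0.0121). It is the genotype difference after exercise, −0.45, which did not pass by itself (adjusted p = 0.0713), minus that at rest, 0.81, which did (adjusted p = 0.0159). The value held between −1.38 and −1.09 under the 24 alternatives tried. The adjusted p was above 0.05 in 7 of them, counting the fit without the arrays of high Xist. It was 0.0709 without sedentary wild type replicate 2, 0.0632 without sedentary ERRα-null replicate 2, 0.0555 and 0.0611 without exercised wild type replicates 1 and 2, and 0.0517 without exercised ERRα-null replicate 3. After quantile normalization the adjusted p was 0.0583. Without the 3 arrays of high Xist the interaction was −1.09, where the exercised ERRα-null group is replicate 1 alone.

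**Figure D3:**
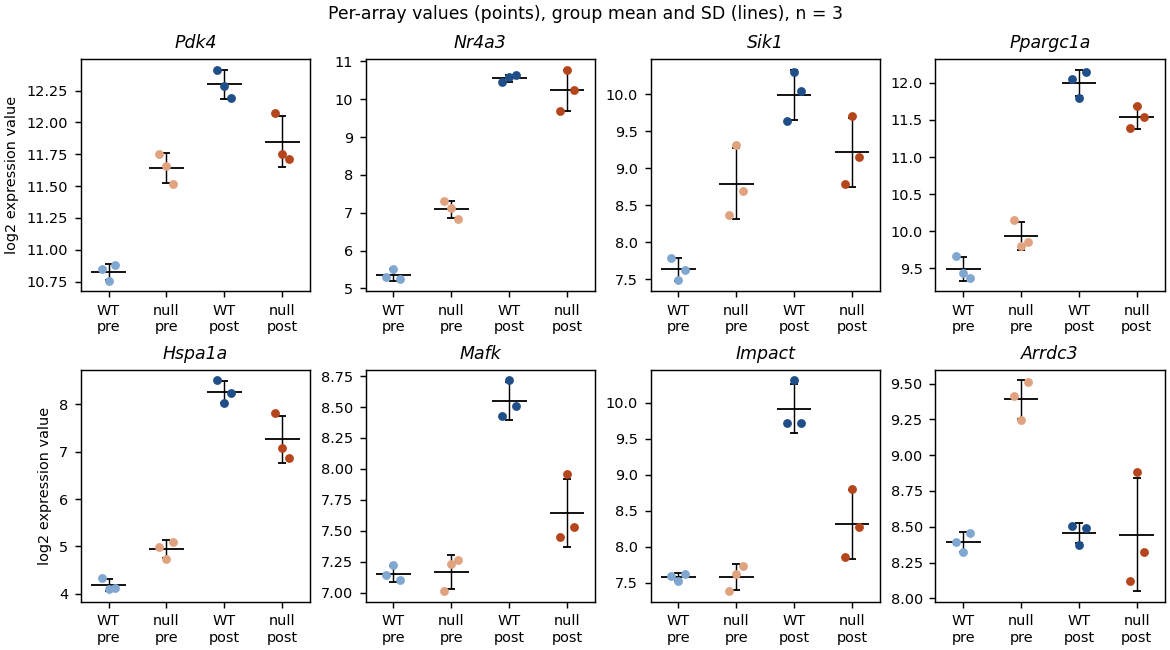
Log2 expression value on each of the 12 arrays for 8 genes, with points for arrays and lines for the group mean and SD of 3 arrays (null is ERRα-null, pre is sedentary, post is exercised; each panel has its own axis). In the Pdk4 panel the ERRα-null points lie above wild type at rest and below it after exercise, for Mafk and Impact the genotypes overlap at rest and lie apart after exercise, and for Arrdc3 they lie apart at rest and overlap after exercise.

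The 3 NR4A orphan receptors, early transcription factors that contraction and adrenergic signals induce, had the largest list median of the interaction, −1.92 against −0.0024 for all genes. All 3 lay below 0, 2 of them at an unadjusted p under 0.05 (3.20% of all genes), and none passed. Nr4a3 lay at 5.30, 5.52 and 5.24 in sedentary and 10.44, 10.58 and 10.63 in exercised wild-type muscle. In ERRα-null muscle it was already at 7.30, 7.13 and 6.84 at rest and reached 9.68, 10.78 and 10.24. The genotypes were far apart at rest and overlapped after exercise. Nr4a3 rose 36.7-fold in wild type and 8.81-fold in ERRα-null muscle, and the interaction of −2.06 ± 0.31 had an adjusted p of 0.139. Its sedentary wild-type level is close to the brightness limit for testing, where array values compress changes. The interaction passed without exercised ERRα-null replicate 1 (−1.78, adjusted p = 0.0271) or 2 (−2.33, adjusted p = 0.0102). It also passed with high Xist as a covariate (−2.22, adjusted p = 0.0265). Without the 3 arrays of high Xist the value was −2.57. The exercised ERRα-null group is then replicate 1 alone, its lowest array at 9.68.

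Nr4a2 had another shape. Sedentary wild-type arrays lay at 6.64, 6.42 and 6.52, sedentary ERRα-null arrays at 6.38, 8.54 and 7.39, exercised wild-type arrays at 8.29, 8.27 and 8.50, and exercised ERRα-null arrays at 6.99, 7.84 and 7.20. The sedentary ERRα-null arrays were widely spread and overlapped wild type, while the exercised ones all lay below it. Nr4a2 rose in wild type (1.82 ± 0.40, adjusted p = 0.0283) with a response of −0.10 ± 0.40 in ERRα-null muscle and an interaction of −1.92 (adjusted p = 0.789). Nr4a1 had an interaction of −1.14 (adjusted p = 0.960), with responses of 1.04 and −0.10 that did not pass.

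Among the coactivators and receptors of the ERRα pathway Ppargc1a stood out. Of 20 tested PGC-1, ERR and PPAR genes 14 lay below 0, 3 at an unadjusted p under 0.05 (3.20% of all genes). The median of the 20 was −0.06 (−0.14 without sedentary wild type replicate 1, −0.01 without sedentary wild type replicate 3). Ppargc1a, the inducible coactivator of ERRα, lay at 9.67, 9.44 and 9.36 in sedentary and 12.04, 11.80 and 12.15 in exercised wild-type muscle, and at 10.16, 9.80 and 9.86 and then 11.38, 11.69 and 11.53 in ERRα-null muscle. As with Pdk4, ERRα-null arrays were higher at rest and lower after exercise with no overlap. It rose 5.68-fold in wild type and 3.02-fold in ERRα-null muscle, with an interaction of −0.91 ± 0.17 (adjusted p = 0.329). Ppard, a fatty acid sensing receptor of muscle, rose in wild type (0.72) with a response of 0.38 in ERRα-null muscle and an interaction of −0.33 (adjusted p = 0.932). Ppargc1b, the less inducible relative of Ppargc1a, had an interaction of 0.54 in the other direction (95% interval −0.02 to 1.10). Nrip1, a corepressor of ERRα and PPAR receptors, had an interaction of −0.35 (adjusted p = 0.950).

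PPAR target genes, which overlap those of ERRα, had a median interaction of −0.31, with 13 of 14 below 0. At an unadjusted p under 0.05 there were 4 (3.20% of all genes), 2 without sedentary wild type replicate 3. Pdk4 is a member of the list and was its one called gene. Leaving out sedentary ERRα-null replicate 2 gave a median of −0.47, and leaving out sedentary wild type replicate 1 gave −0.17. Ucp3, a mitochondrial carrier induced by fatty acids, lay at 8.63, 8.74 and 8.59 in sedentary and 10.30, 10.32 and 9.98 in exercised wild-type muscle. In ERRα-null muscle it lay at 9.28, 9.56 and 8.82, then at 10.04, 9.89 and 9.89. The gap between genotypes was thus at rest, and after exercise the arrays overlapped. Ucp3 rose 2.91-fold in wild type, its response of 0.71 in ERRα-null muscle did not pass (adjusted p = 0.0659), and the interaction was −0.83 ± 0.22 (adjusted p = 0.634). Slc25a34, a mitochondrial carrier, had responses of 0.60, which passed, and 0.09, with an interaction of −0.52. Mlycd, which degrades malonyl-CoA and so relieves fatty acid oxidation, had an interaction of −0.58 (adjusted p = 0.862), and the fatty acid transporter Slc27a1 one of −0.48 (adjusted p = 0.828).

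The structural genes of oxidative metabolism, for which ERRα is best known, showed small interactions 2 h after running. Complex I subunits had a median of −0.02 (19 of 32 below 0), complexes II to V −0.07 (25 of 36), the tricarboxylic acid cycle and pyruvate entry −0.09 (18 of 20), and mitochondrial ribosomal proteins −0.03 (32 of 57). The directions of these lists moved with single arrays. Without sedentary wild type replicate 3, 10 complex I members (median 0.05) and 16 of complexes II to V (median 0.01) lay below 0, and without sedentary ERRα-null replicate 1 it was 27 (median −0.09) and 33 (median −0.13). The tricarboxylic acid cycle median ran from −0.15 to −0.03 and that of mitochondrial ribosomal proteins from −0.10 to 0.03, with sedentary ERRα-null replicate 1 at the lower end of both and exercised ERRα-null replicate 1 and sedentary ERRα-null replicate 3 at the upper. None of the members of the first 3 lists reached an unadjusted p under 0.05, and 1 mitochondrial ribosomal gene did, where leaving out sedentary ERRα-null replicate 1 gave 6. None of these genes changed with exercise in either genotype. Cycs, which encodes cytochrome c, lay at 12.19, 12.27 and 12.02 in sedentary and 12.44, 12.24 and 12.09 in exercised wild type, and at 11.60, 11.89 and 11.75 and then 11.81, 11.62 and 11.73 in ERRα-null muscle. The ERRα-null arrays were lower in both states by a like amount, with an interaction of −0.12 (95% interval −0.43 to 0.19). For Ndufb9, a subunit of complex I, the interaction was 0.13 (95% interval −0.05 to 0.32). Fatty acid uptake and oxidation genes had a median of −0.09, with 20 of 27 below 0. Of these, 4 had an unadjusted p under 0.05 (3.20% of all genes), Mlycd and Slc27a1 among them. The 4 became 2 when sedentary wild type replicate 2, sedentary ERRα-null replicate 3, exercised wild type replicate 2 or exercised ERRα-null replicate 2 was left out, and leaving out sedentary ERRα-null replicates 1 and 3 in turn gave medians of −0.15 and −0.03.

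Among salt-inducible kinases and genes of the CREB pathway, 8 of 13 tested interactions lay below and 5 above 0. Of the 13, 1 had an unadjusted p under 0.05 (5.12% of all genes in either direction), and none passed. Sik1, a kinase that CREB induces and that feeds back on CREB coactivators, lay at 7.79, 7.49 and 7.62 in sedentary and 9.63, 10.31 and 10.05 in exercised wild type. In ERRα-null muscle it lay at 8.37, 9.31 and 8.70 and then at 8.79, 9.71 and 9.15. At rest the genotypes did not overlap, and after exercise the highest ERRα-null array lay inside the wild-type range. Sik1 rose 5.15-fold in wild type, and its response of 0.42 ± 0.26 in ERRα-null muscle did not pass. The interaction was −1.94 ± 0.37 (adjusted p = 0.329). The median of all 13 was −0.09, or −0.20 with sedentary wild type replicate 3 left out and −0.02 with exercised ERRα-null replicate 3 left out. Without the 3 arrays of high Xist, where exercised ERRα-null muscle is replicate 1 alone, it was 0.002. With an array left out up to 3 members lay below 0 at an unadjusted p under 0.05 (without sedentary ERRα-null replicate 1 or exercised wild type replicate 2).

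AP-1, ATF3 and small MAF factors, which bind DNA as leucine-zipper dimers, had a median response of 0.66 in wild-type and 0.23 in ERRα-null muscle. In wild type 7 of 12 members rose against 1 in ERRα-null muscle, Atf3 (2.22% and 0.383% of all genes). Of the 12, 11 had an interaction below 0, 7 at an unadjusted p under 0.05 (3.20% of all genes). The latter count of 7 was 2 without exercised ERRα-null replicate 3 and 8 without sedentary ERRα-null replicate 1. Leaving out any of 7 arrays moved it by over 1.5 times, whereas 11 members lay below 0 whichever array was left out. Mafk, a small MAF factor that pairs with NRF2, lay at 7.14, 7.22 and 7.10 in sedentary and 8.42, 8.72 and 8.51 in exercised wild type, and at 7.01, 7.23 and 7.26 and then 7.45, 7.96 and 7.53 in ERRα-null muscle. The genotypes overlapped at rest and were apart after exercise. Mafk rose 2.63-fold in wild type, with an interaction of −0.92 ± 0.19 (adjusted p = 0.394) that passed without exercised ERRα-null replicate 2 (−1.08, adjusted p = 0.0405). Fos (−1.13), Jun (−0.79), Fosl2 (−0.66) and Junb (−0.54) followed. Fos and Jun rose in wild type by 1.90 and 1.19 and had responses of 0.77 and 0.40 in ERRα-null muscle. Atf3 rose in both genotypes, by 3.01 and 2.32, with an interaction of −0.69 (adjusted p = 0.997).

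The EGR, IER, KLF and other early genes had median responses of 0.46 and 0.09. Interactions lay below 0 for 20 of 27, 7 at an unadjusted p under 0.05 (3.20% of all genes). In wild type 8 rose (2.22% of all genes) and in ERRα-null muscle none did, where limma calls 51 genes higher in all (0.383%). The median interaction of −0.35 was −0.39 without sedentary ERRα-null replicate 1 and −0.19 without sedentary ERRα-null replicate 2. Csrnp1 (interaction −0.79), Btg2 (−1.10) and Klf10 (−1.10) are transcription regulators that growth and stress signals induce. They rose in wild type by 1.33, 1.53 and 1.27 and had responses of 0.54, 0.43 and 0.17 in ERRα-null muscle. Egr1 rose by 1.58 in wild type with an interaction of −0.72 (adjusted p = 0.997).

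Heat shock and folding chaperones held genes that rose in both genotypes. Of 28 tested members 18 rose in wild type and 7 in ERRα-null muscle (2.22% and 0.383% of all genes), with median responses of 0.49 and 0.31. Interactions lay below 0 for 25 of 28, 6 of them at an unadjusted p under 0.05 (3.20% of all genes), and the median was −0.19. Hspa1a, the inducible HSP70, lay at 4.33, 4.11 and 4.11 in sedentary and 8.51, 8.03 and 8.23 in exercised wild type, and at 4.98, 4.73 and 5.10 and then 7.83, 7.09 and 6.86 in ERRα-null muscle. The exercised ERRα-null arrays all lay under the wild-type ones, and the sedentary ones all lay above them at a dim level. All 6 sedentary values lay under the brightness limit of 5.32 for testing, which the gene passed through its exercised arrays, so its folds are given against that limit. Hspa1a rose at least 7.64-fold in wild type and at least 3.83-fold in ERRα-null muscle. Its interaction of −1.75 ± 0.30 (adjusted p = 0.308) rests on the values under the limit. The genotype difference on exercised arrays, which were above it, was −0.999 (adjusted p = 0.0697). Hspa1b, a near-identical copy whose probes can share transcripts with it, rose 22.0-fold and 7.24-fold (interaction −1.60 ± 0.43, adjusted p = 0.643). The interaction of both passed without exercised ERRα-null replicate 1, at −2.04 (adjusted p = 0.00770) for Hspa1a, with the same limit, and −2.06 (adjusted p = 0.0121) for Hspa1b.

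Hsp90aa1, the stress-inducible HSP90, rose by 1.46 in wild type and 0.72 in ERRα-null muscle, with an interaction of −0.74 ± 0.19 (adjusted p = 0.616). Its sedentary levels overlapped between genotypes, and after exercise the ERRα-null arrays at 8.03, 7.92 and 7.72 all lay below the wild-type arrays at 8.74, 8.81 and 8.54. Hsph1, an HSP110 cochaperone, rose by 1.04 in wild type and had a response of 0.54 in ERRα-null muscle (interaction −0.49, adjusted p = 0.948).

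The integrated stress response and the unfolded protein response adjust translation and folding capacity. In wild type 7 of 30 tested genes rose (2.22% of all genes). In ERRα-null muscle none did, which is near the 0.383% of all genes that rose there. Interactions lay below 0 for 26 of 30, 6 at an unadjusted p under 0.05 (3.20% of all genes). The median of −0.28 was −0.36 without sedentary ERRα-null replicate 2 and −0.14 without sedentary ERRα-null replicate 1. Atf4, its central factor, had an interaction of −0.39 ± 0.10 (adjusted p = 0.608). Ppp1r15a, which guides dephosphorylation of the initiation factor eIF2α, had one of −0.67 ± 0.15 (adjusted p = 0.430), Dnajb9 of the endoplasmic reticulum −0.69 ± 0.15 (adjusted p = 0.457), and Hspa5, its main chaperone, −0.42 ± 0.12 (adjusted p = 0.778). These 4 genes rose in wild type by 0.60 to 0.85 and had responses of 0.04 to 0.26 in ERRα-null muscle that did not pass.

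Impact, an inhibitor of the eIF2α kinase GCN2, was among the first 15 genes. It lay at 7.60, 7.52 and 7.63 in sedentary and 9.72, 10.31 and 9.71 in exercised wild type, and at 7.38, 7.63 and 7.73 and then 7.85, 8.81 and 8.27 in ERRα-null muscle. The genotypes overlapped at rest and did not after exercise. Impact rose 5.04-fold in wild type, its response of 0.73 ± 0.21 in ERRα-null muscle did not pass (adjusted p = 0.162), and the interaction was −1.60 ± 0.30 (adjusted p = 0.329). It passed without exercised ERRα-null replicate 2 (−1.85, adjusted p = 0.0388). Retreg1, a receptor for selective autophagy of the endoplasmic reticulum, rose 2.10-fold in wild type with an interaction of −0.68 ± 0.13 (adjusted p = 0.391), which passed without the same array (−0.80, adjusted p = 0.0388).

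Antioxidant genes under NRF2 gave 12 of 17 interactions below 0, 6 at an unadjusted p under 0.05 (3.20% of all genes), with a median of −0.13. The 6 became 3 without sedentary ERRα-null replicate 3 or exercised ERRα-null replicate 1, and the median was −0.20 without sedentary ERRα-null replicate 1 and −0.08 without sedentary wild type replicate 2. Srxn1, sulfiredoxin, lay at 7.47, 7.35 and 7.23 in sedentary and 9.57, 9.22 and 9.37 in exercised wild type, and at 7.46, 7.30 and 7.45 and then 8.67, 8.99 and 8.54 in ERRα-null muscle. The genotypes overlapped at rest and were apart after exercise. Srxn1 rose 4.11-fold and 2.51-fold, with an interaction of −0.71 ± 0.18 (adjusted p = 0.603). Hmox1, heme oxygenase, rose by 1.73 in wild type with a response of 0.83 in ERRα-null muscle (interaction −0.90, adjusted p = 0.795). Nfe2l2, which encodes NRF2, and Txnrd1, thioredoxin reductase, had interactions of −0.60 and −0.37. Resident antioxidant enzymes had a median of −0.07 (−0.12 to −0.04 with each array left out) with no member at an unadjusted p under 0.05. The metal-binding metallothioneins Mt1 and Mt2 rose in both genotypes, by 2.03 and 2.96 in wild type and by 1.46 and 2.02 in ERRα-null muscle, with interactions of −0.57 (adjusted p = 0.997) and −0.95 (adjusted p = 0.950).

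Among glucocorticoid receptor targets all 18 tested interactions lay below 0, 5 at an unadjusted p under 0.05 (3.20% of all genes), with a median of −0.49. The 5 became 3 without sedentary ERRα-null replicate 2 or exercised ERRα-null replicate 1. With each array left out in turn 15 to 18 lay below 0. Their median response was 0.52 in wild-type and 0.05 in ERRα-null muscle. Without exercised wild type replicate 2 the median was −0.29 and without sedentary ERRα-null replicate 1 it was −0.59. Exercised wild type replicate 2 had the highest neutrophil score, 1.06 above the mean of all arrays where the other 11 lay at most 0.04 above it, and its part in the list was not tested beyond leaving it out. Lcn2, a secreted lipocalin that neutrophils also carry, lay at 6.98, 7.42 and 6.94 on exercised wild-type arrays and at 6.50, 6.32 and 6.40 on exercised ERRα-null arrays, apart on each array. Its interaction was −0.90 ± 0.22 (adjusted p = 0.603). Fkbp5, a chaperone of the receptor and a usual marker of its activity, rose by 0.79 in wild type and had a response of 0.13 in ERRα-null muscle (interaction −0.67 ± 0.20, adjusted p = 0.795). Cebpb rose by 1.01 in wild type, with an interaction of −0.76 (adjusted p = 0.948).

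Among atrophy ligases and FOXO factors 17 of 21 interactions lay below 0, 4 at an unadjusted p under 0.05 (3.20% of all genes). The median of −0.15 was −0.22 without exercised wild type replicate 3 and −0.09 without exercised wild type replicate 2. The ubiquitin ligase Trim63, MuRF1, lay at 9.05, 9.06 and 9.36 in sedentary and 10.78, 11.33 and 11.04 in exercised wild type, and at 9.67, 9.43 and 10.00 and then 9.47, 10.77 and 10.06 in ERRα-null muscle. The exercised ERRα-null arrays were widely spread, and the highest of them lay just under the lowest wild-type array. Trim63 rose 3.70-fold in wild type, its response of 0.40 ± 0.27 in ERRα-null muscle did not pass, and the interaction was −1.49 ± 0.38 (adjusted p = 0.603). Foxo1, a factor that drives Trim63 and Pdk4, rose by 0.90 in wild type with a response of 0.08 in ERRα-null muscle (interaction −0.82, adjusted p = 0.748). A dimmer probeset of Foxo1, which was not tested, gave responses of 0.18 and −0.01 and an interaction of −0.19. Fbxo32, the ligase atrogin-1, had responses of 0.48 and −0.34, neither of which passed, and an interaction of −0.82 (95% interval −1.53 to −0.10, adjusted p = 0.948). Eif4ebp1, a repressor of translation, had an interaction of −0.57 (adjusted p = 0.821). Proteasome subunits had a median of −0.09 (24 of 29 below 0) and autophagy and lysosome genes one of −0.13 (22 of 28 below 0). Each list had 4 members at an unadjusted p under 0.05, all below 0 (3.20% of all genes). For the proteasome the 4 became 2 without sedentary wild type replicate 3, sedentary ERRα-null replicate 3 or exercised ERRα-null replicate 1, and the median was −0.14 without sedentary ERRα-null replicate 1 and −0.03 without sedentary ERRα-null replicate 3. For autophagy and lysosome genes the 4 became 1 without sedentary wild type replicate 2 or sedentary ERRα-null replicate 3 and 6 without sedentary ERRα-null replicate 1. Flcn, a nutrient sensor at the lysosome, was one of those 4, and it rose in both genotypes, by 1.15 and 0.59 (interaction −0.56, adjusted p = 0.767).

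Genes of glucose handling had a median interaction of −0.03 and 17 of 27 below 0. At an unadjusted p under 0.05 there were 3 below and 1 above 0 (3.20% and 1.92% of all genes). The members described here rose in wild type. Ppp1r3c, which targets protein phosphatase 1 to glycogen and so favours its synthesis, lay at 10.02, 9.68 and 9.82 in sedentary and 10.93, 11.32 and 10.98 in exercised wild type, and at 10.00, 10.07 and 10.36 and then 10.19, 10.65 and 10.40 in ERRα-null muscle. After exercise the ERRα-null arrays all lay below wild type. Ppp1r3c rose 2.36-fold in wild type, with a response of 0.27 ± 0.14 in ERRα-null muscle and an interaction of −0.97 ± 0.20 (adjusted p = 0.394). Hexokinase Hk2 rose by 1.09 in wild type with a response of 0.43 in ERRα-null muscle (interaction −0.65 ± 0.20, adjusted p = 0.818), and the glucose transporter Slc2a1 by 0.83 with a response of 0.38 (interaction −0.44, adjusted p = 0.882).

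The lactate and monocarboxylate transporter Slc16a1 lay at 9.09, 9.19 and 8.85 in sedentary and 10.01, 9.83 and 9.83 in exercised wild type, and at 8.53, 8.93 and 8.85 and then 9.02, 8.92 and 9.17 in ERRα-null muscle. On exercised arrays the genotypes were apart, with ERRα-null lower by 0.85 (adjusted p = 0.0227). Slc16a1 rose in wild type by 0.84 and had a response of 0.27 in ERRα-null muscle, with an interaction of −0.57 ± 0.17 (adjusted p = 0.782). The other 8 lactate and alanine genes held no member at an unadjusted p under 0.05. Vegfa, the angiogenic growth factor that PGC-1α and ERRα are known to induce in muscle, rose by 0.86 in wild type with a response of 0.34 in ERRα-null muscle (interaction −0.52, 95% interval −0.90 to −0.13, adjusted p = 0.910). Its list, with angiopoietins and endothelial receptors, did not share that direction. Of 19 tested members 7 lay below and 12 above 0, with 1 below and 2 above at an unadjusted p under 0.05 (3.20% and 1.92% of all genes). The median was 0.16, or −0.08 without exercised wild type replicate 2.

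The remaining genes of the first 15 have mixed roles. Pdxk, which makes the active form of vitamin B6, rose 2.37-fold in wild type with a response of 0.06 ± 0.17 in ERRα-null muscle, and after exercise the ERRα-null arrays at 6.69, 7.49 and 7.29 all lay below the wild-type arrays at 8.12, 8.28 and 8.43. Nfil3, a leucine-zipper repressor of the clock, rose 3.51-fold in wild type with an interaction of −1.10 ± 0.22 (adjusted p = 0.394). Irf2bp2, a transcriptional corepressor, and Hivep2, a zinc finger factor, rose by 1.21 and 0.52 in wild type with interactions of −0.78 ± 0.14 and −0.49 ± 0.09 (adjusted p = 0.308 for both). Mknk2, a kinase of the initiation factor eIF4E, rose by 0.74 with an interaction of −0.55 ± 0.11. Gcnt2, which branches poly-N-acetyllactosamine chains, is the one that fell in ERRα-null muscle, by 0.73, from 7.22, 7.36 and 7.59 to 6.65, 6.53 and 6.80, while wild-type arrays lay between 6.87 and 6.99 in both states. Dimmer probesets of Irf2bp2 and Gcnt2 did not show the difference, with interactions of 0.02 for Irf2bp2 and 0.10 and −0.04 for Gcnt2.

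The alpha-arrestin Arrdc3, an adaptor that sends receptors to degradation, was higher in ERRα-null muscle at rest (adjusted p = 0.0391). It lay at 8.40, 8.32 and 8.46 in sedentary and 8.51, 8.37 and 8.49 in exercised wild type, and at 9.42, 9.25 and 9.51 and then 8.12, 8.88 and 8.32 in ERRα-null muscle. Sedentary ERRα-null muscle stood above all other groups, and after exercise the genotypes overlapped. Arrdc3 fell by 0.95 ± 0.15 in ERRα-null muscle (adjusted p = 0.0171) with a response of 0.06 in wild type. The interaction was −1.01 ± 0.22 (adjusted p = 0.430) and passed without exercised ERRα-null replicate 2 (−1.23, adjusted p = 0.0136). Arrdc2 fell by 1.24 in ERRα-null muscle with a response of 0.02 in wild type and an interaction of −1.26 ± 0.35 (adjusted p = 0.698). Of the 7 arrestins and Txnip 5 lay below 0, 2 below and 1 above 0 at an unadjusted p under 0.05 (3.20% and 1.92% of all genes).

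Core clock genes had no common direction, with 8 of 17 interactions below 0 and a median of 0.14, which was 0.0027 without sedentary wild type replicate 3. Nr1d1, the clock repressor REV-ERBα, fell by 0.97 in wild type (adjusted p = 0.0408) and had a response of −0.09 in ERRα-null muscle, with an interaction of 0.88 ± 0.32 (adjusted p = 0.948) and overlapping arrays after exercise. Cry2, another repressor, had an interaction of −0.39 (adjusted p = 0.932). The labels used here give no hour of day for the muscles.

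Stretch-responsive sarcomere genes responded in both genotypes, 6 of 17 rising in wild type and 4 in ERRα-null muscle (2.22% and 0.383% of all genes). In each genotype 1 member fell. Interactions lay below 0 for 11 and above 0 for 6, from −0.52 to 1.05, with a median of −0.01. None had an unadjusted p under 0.05. Xirp1, a repair protein of myofibrils, rose by 2.17 and 1.65 (interaction −0.52, 95% interval −1.09 to 0.05), and the filamin Flnc by 1.10 and 0.79 (interaction −0.31). Rcan1, a calcineurin target and inhibitor, rose by 1.55 and 1.31, with an interaction of −0.24 (95% interval −0.86 to 0.38). These intervals are wide, and a p that misses the threshold does not show equal responses. Fast fibre genes had a median of −0.0002, and slow fibre genes one of −0.30 with 12 of 13 below 0, none of them at an unadjusted p under 0.05. Leaving out sedentary wild type replicate 1 gave a slow fibre median of −0.47, and leaving out exercised wild type replicate 3 gave −0.12. Per array the slow fibre mean ran from −0.50 to 0.04 around the overall mean in sedentary wild type and from −0.31 to 0.32 in exercised wild type, a spread as wide as the difference. Myh7, the slow myosin heavy chain, had an interaction of −0.48 (95% interval −1.28 to 0.32).

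**Figure D4:**
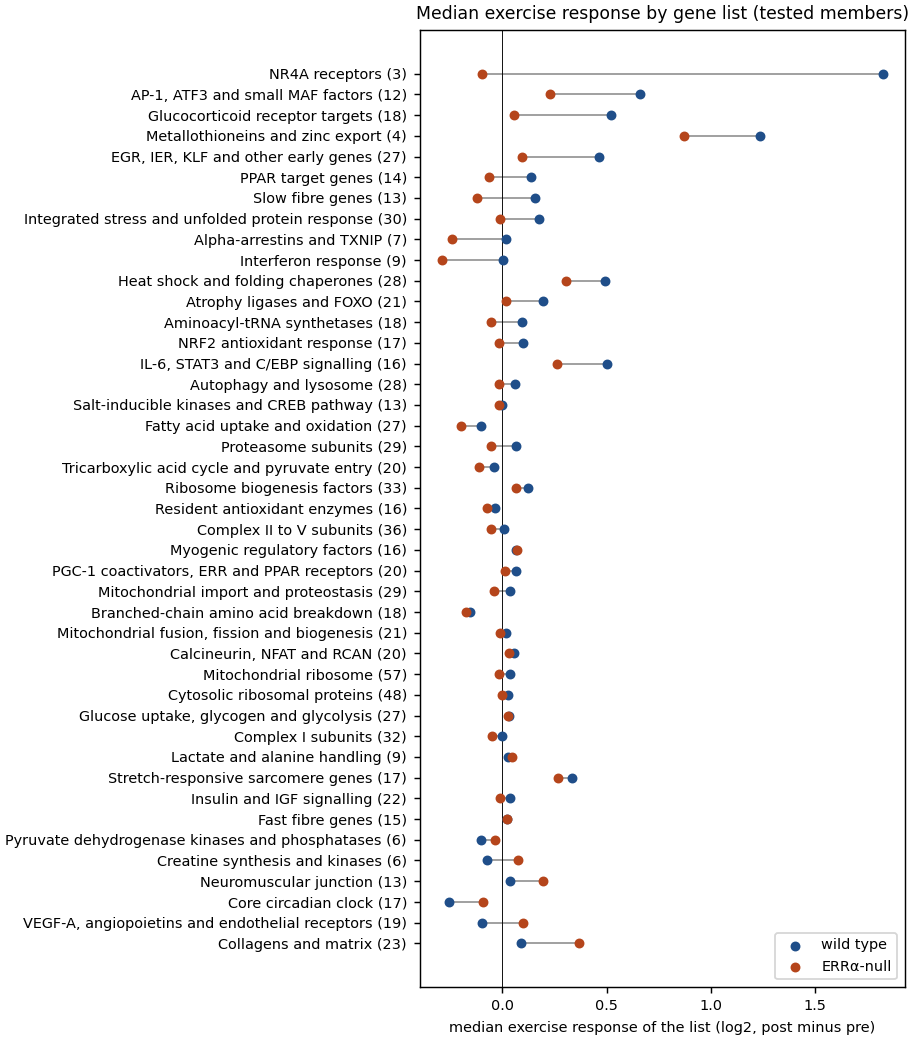
Median exercise response (log2, exercised minus sedentary) of the tested members of each gene list in wild-type and ERRα-null muscle, ordered by the median interaction, with the number of tested members in brackets and lists of cell type markers left out. NR4A, AP-1, glucocorticoid, metallothionein and early gene lists have the ERRα-null point to the left of the wild-type point, mitochondrial and fast fibre lists have both points near 0, and collagens and matrix have the ERRα-null point to the right.

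No gene passed in the opposite direction. The 15 genes with the smallest p above 0 were Scarb1, Sfrp4, Cygb, Sdc2, Cd248, Tspan12, Acot11, Mrgprf, Olfml2a, Aplnr, Dcpp1, Nras, Fgf18, Serpinb1a and P2rx1, with interactions from 0.37 to 1.16 and adjusted p from 0.603 to 0.795. The highest of these values, of Serpinb1a, rests on an exercised wild-type mean of 4.92, under the brightness limit. Of these, 7 fell in wild type (Scarb1, Cygb, Cd248, Tspan12, Acot11, Olfml2a and Nras), and in ERRα-null muscle Mrgprf rose and the other 14 did not pass. After exercise 12 of the 15 did not overlap, with ERRα-null arrays higher, against 16.0% of all genes. At rest 7 of the 15 did not overlap, against 13.4%. These genes too were ranked by this contrast, so the counts describe its shape and do not support it.

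Scarb1, the receptor for high-density lipoprotein, lay at 8.42, 8.40 and 8.47 in sedentary and 7.55, 7.31 and 7.51 in exercised wild type, and at 8.04, 8.15 and 7.94 and then 7.78, 7.64 and 7.47 in ERRα-null muscle. The genotypes were apart at rest and overlapped after exercise. Scarb1 fell by 0.98 in wild type, with an interaction of 0.56 ± 0.14 (adjusted p = 0.603). Cd248, endosialin of pericytes and fibroblasts, lay at 7.84, 8.12 and 7.88 in sedentary and 7.33, 7.11 and 6.99 in exercised wild type, and at 7.25, 7.87 and 7.39 and then 8.01, 7.44 and 7.60 in ERRα-null muscle. It overlapped at rest and was higher in ERRα-null muscle on each array after exercise (interaction 0.98 ± 0.25, adjusted p = 0.603). Mrgprf, an orphan G protein-coupled receptor, rose by 0.55 in ERRα-null muscle (adjusted p = 0.0255), from 5.57, 5.77 and 5.67 to 6.30, 6.29 and 6.07, while wild-type arrays lay between 5.83 and 5.98. Sfrp4, a secreted Wnt antagonist, had an interaction of 0.87, Cygb, the globin of fibroblast-like cells, 0.65, and Aplnr, the apelin receptor of endothelium, 1.03.

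Collagens and matrix genes had a median response of 0.09 in wild-type and 0.37 in ERRα-null muscle, and 20 of 23 interactions lay above 0, with a median of 0.37 and 3 at an unadjusted p under 0.05 (1.92% of all genes). These were the proteoglycans Lum (0.70, 95% interval 0.24 to 1.16) and Bgn (0.47) and the fibrillar collagen Col5a1 (0.52). Leaving out sedentary ERRα-null replicate 1 gave a median of 0.23, and leaving out replicate 2 of that group gave 0.54. The 3 at an unadjusted p under 0.05 became 12 without sedentary ERRα-null replicate 2, 10 without sedentary wild type replicate 3 and 7 without exercised wild type replicate 1, and 2 when any of 6 other arrays was left out. Markers of the cells that make or neighbour the matrix lay on the same side. All 9 tested tendon and fibroblast markers lay above 0 (median 0.24), as did 9 of 11 endothelial markers (0.20) and 8 of 11 smooth muscle and pericyte markers (0.25), none at an unadjusted p under 0.05. In whole muscle, fewer cells of a type and less RNA per cell cannot be told apart.

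Exercised wild type replicate 2 stood low on all of these lists, with mean scores of −0.40 for endothelial, −0.45 for smooth muscle and pericyte and −0.33 for tendon and fibroblast markers, where the other exercised wild-type arrays lay between 0.08 and 0.40. Without it the medians were −0.04, 0.04 and 0.06, and 6 of the 11 endothelial markers lay below 0. Of the 9 tendon and fibroblast markers 4 lay below 0 without sedentary wild type replicate 1. For tendon and fibroblast markers the sedentary arrays were as widely spread, from −0.57 to 0.28 in wild type and from −0.38 to 0.05 in ERRα-null muscle. Skeletal muscle markers gave a median interaction of −0.01. The part of these shifts in the values of single matrix genes was not tested.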

How the data were processed

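Gastrocnemius RNA of 12 mice was measured on 1 array each. The deposited values are log2 expression values, made by the authors with Affymetrix Expression Console, Transcriptome Analysis Console and RMA per the submitters' processing notes. Versions, options and build: not given in the sources used here. RMA sets all arrays to a common distribution, so changes are relative to most genes, and those of dim transcripts are compressed. Median log2 values ran from 5.15 to 5.26, and no 2 arrays were identical.

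The platform table names 1 gene for 23521 of 41345 probesets, several for 1814 and none for 16010. Each of 22180 genes was represented by its probeset of highest mean, and the lowest 40% (under 5.32) were not tested. limma 3.58.1 in R 4.3.3 fitted 4 group means to 12 arrays (8 residual degrees of freedom, eBayes with an intensity trend), with two-sided p-values adjusted by Benjamini-Hochberg over 13308 genes. The fit was tested on simulated data. Values after ± are standard errors. "Rose", "fell" and "passed" mean an adjusted p under 0.05. P-values rest on the spread between arrays within groups, pooled over the 4 groups and moderated by eBayes.

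Named genes are Esrra, the 15 of smallest p in each direction, the 4 of smallest p in each of 59 lists, and 46 regulators. The comparison, lists and regulators were chosen with earlier results of these data known, and lists were described without a test. A list's score on an array is the mean of its members after each was centred on its mean over 12 arrays. The 24 alternatives, including each array left out, changed filter, variance model, normalization, probeset rule, a replicate block, high-Xist arrays and other-tissue scores. Promoter windows come from RefSeq.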

Additional observations from a re-analysis of the deposited data

Results flagged for a closer look

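The interaction of Pdk4, −1.26 log2, is the one result in which a test of the difference between the responses of the genotypes passed at an adjusted p under 0.05. The wild-type response was 1.47 and the ERRα-null response 0.21, and the ERRα-null level lay 0.81 above wild type at rest, with a difference of −0.45 after exercise.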

How the results depend on the processing

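The count of 1 gene for the interaction was 0 after quantile normalization and 2 with high Xist as a covariate (Nr4a3 and Pdk4), and ran from 0 to 6 with each array left out; without the 3 arrays of high Xist it was 1 again, Nr4a3 in place of Pdk4. For exercise in wild type, 457 genes became 230 without those arrays, 303 with high Xist as a covariate and 169 with other-tissue scores as covariates, and 221 to 502 with an array left out. For exercise in ERRα-null muscle, 85 became 54 with no filter, 268 with array weights, 16 without the high-Xist arrays, 34 with high Xist as a covariate and 12 with other-tissue scores, and 32 to 109 with an array left out. Interactions at an unadjusted p under 0.05 numbered 1078 with no filter and 1041 with array weights, against 681.

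Values that changed sign were those of genes that did not pass. Esrra moved to between −0.0352 and −0.0001 with each of 4 arrays left out, Rcan1 to 0.13 without the high-Xist arrays, and Ighm from −1.18 to 0.29 with the mean of its probesets. The cause of these changes was not tested.

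The labels give the shared replicate numbers no meaning, and over the 4 groups not every same-numbered pair correlated above 0.1. Same-numbered arrays had correlations from −0.28 to 0.35 in their deviations from the group means, 9 of 18 over 0.1, and 6 of 12 arrays correlated best with their own number. Between the exercised groups the 3 same-numbered pairs lay between 0.17 and 0.31 and the 6 other pairs between −0.22 and 0.03. A replicate block left the interaction with 1 called gene, Pdk4 (adjusted p = 0.00433). No slide or scan batch is given in the sources used here.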

Other observations

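Some transcripts that differed between groups belong to other tissues. Elovl3, an elongase of brown fat and skin, lay at 5.97, 7.60 and 7.85 in sedentary wild-type muscle and at 5.16, 5.31 and 5.72 in sedentary ERRα-null muscle, and between 4.45 and 4.90 on the 6 exercised arrays. The exercised values and 2 of the sedentary ERRα-null ones lay under the brightness limit of 5.32, so that the gene was tested through its sedentary arrays, and no interaction is given for it. In wild type it was at least 3.52-fold lower after exercise, against that limit. The 2 highest arrays are those on which Ucp1 reached 10.82 and 10.93.

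Ighm, the heavy chain of immunoglobulin M, lay between 11.31 and 12.11 on wild-type arrays, between 10.06 and 10.73 on sedentary ERRα-null arrays, and at 10.08, 8.13 and 9.05 on exercised ones. On this probeset, the brightest of Ighm, the genotypes did not overlap in either state. The 2 lowest arrays are those of high Xist among the exercised ERRα-null arrays. The interaction of −1.18 (adjusted p = 0.960) turned to 0.29 with the mean of its probesets, and the dimmer ones gave −0.05 to 1.05. The B-cell transcripts Cd79a, Cd79b, Cd22 and Pax5 overlapped between genotypes in both states.

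Ribosome biogenesis factors gave 26 of 33 interactions below 0 (median −0.08), among them Polr1c (−0.49), a subunit of RNA polymerases I and III, and Npm1 (−0.29), nucleophosmin. Of the 33, 5 lay below 0 at an unadjusted p under 0.05 (3.20% of all genes). The 5 became 3 without sedentary ERRα-null replicate 3 or exercised ERRα-null replicate 2. Aminoacyl-tRNA synthetases gave 15 of 18 (median −0.14), and cytosolic ribosomal proteins 30 of 48 (median −0.03), whose 1 member at an unadjusted p under 0.05 lay above 0. Leaving out sedentary ERRα-null replicates 1 and 3 in turn gave medians of −0.12 and −0.03 for ribosome biogenesis. For ribosomal proteins the median was −0.06 with exercised wild type replicate 2 left out and 0.0017 with sedentary wild type replicate 1 left out. Sdc4, a syndecan of satellite cells, rose by 1.26 in wild type, with a response of 0.60 in ERRα-null muscle and an interaction of −0.66 (adjusted p = 0.948). Satellite cell markers as a list had no common direction. Of 9 tested, 5 lay below and 4 above 0, from −0.66 to 0.33, with a median of −0.03.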
